A study of Mus musculus with 3 samples.

Results

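Heat shock proteins and their DnaJ and BAG partners are the protein folding machinery of the cell, and 79 of the 22077 mouse gene names analysed belong to them. They were taken by gene name: every Hspa, Hspb, Hspd, Hspe, Hsph and Hsp90 gene, every DnaJ gene of classes A, B and C, the small heat shock gene Cryab, and Bag1 to Bag6. By family they comprise 14 Hsp70 and Hsp110 genes, 3 Hsp90 genes, 2 chaperonin genes, 9 small heat shock genes, 45 DnaJ genes (4 of class A, 13 of class B and 28 of class C) and 6 BAG genes. Expression was measured by RNA sequencing in 3 libraries of FVB mouse material, 1 per group. The LCC library (lung-colonizing cells) held donor mammary cells that had been delivered intravenously, as a dissociated suspension, to FVB recipients. After 1 day they were sorted from the lungs by green fluorescent protein of the donor mice or by the dye DDAO, with no gate on EpCAM or CD29 stated. The design gives 8 female donors, 4 recipients and 2 injections of 2500000 cells for each experiment, and 15 experiments, 42 lungs and 455880 cells were pooled. The E-Int29-Hi library was a sorted fraction of mammary cells (EpCAM intermediate, CD29 high) that combined 3 samples. The MG library held RNA of mammary gland labelled as not dissociated, and combined 3 samples. No mutation, drug or age is given for any group.

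Hsp70 proteins bind unfolded stretches of other proteins and release them in a cycle driven by ATP. DnaJ proteins bring them substrates and start ATP hydrolysis, while BAG and Hsp110 proteins exchange the nucleotide and so help release the substrate. Hsp90 acts later, on nearly folded clients such as kinases and steroid receptors, the chaperonins fold proteins inside a closed chamber, and small heat shock proteins hold unfolded proteins without ATP. Heat, oxidation and handling of tissue induce part of these genes through the heat shock factor Hsf1, and protein load in the endoplasmic reticulum induces another part.

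Levels are FPKM, the read fragments scaled to gene length and to library size that the authors deposited, so levels of different genes can be compared per length. There were no replicates, so differences between libraries have no replicate check, no test was possible and no p-value is given. Differences are log2 ratios of (FPKM + 1), taken where either library of a comparison reached 1 FPKM, and the added 1 understates the differences of low genes. The median over all genes was 0.26 for LCC over E-Int29-Hi, 0.01 for LCC over MG and -0.23 for E-Int29-Hi over MG, and medians of gene lists are given beside these values. The sequencing depth is unknown here, and 6819 genes were listed at 0 in LCC, against 4952 in E-Int29-Hi and 3163 in MG. Marker lists set the libraries apart. The summed level of 12 luminal markers was 4749 FPKM in LCC, against 333 in E-Int29-Hi and 2595 FPKM in MG, but Krt18 and Krt8 carried most of the LCC sum and 7 of the 12 were lower in LCC than in MG (median log2 ratio -1.06). That of 11 basal and myoepithelial markers was 720.0 FPKM in LCC, against 8556 in E-Int29-Hi and 629.9 FPKM in MG, although 8 of the 11 were lower in LCC than in MG (median -1.05). For 8 fibroblast markers the sums were 1358 FPKM in LCC, against 141 in E-Int29-Hi and 2912 FPKM in MG. For 9 leukocyte markers the sums were 529 FPKM in LCC, against 102 in E-Int29-Hi and 97.7 FPKM in MG. For 8 lung epithelium markers they were 631 FPKM in LCC, against 11.2 in E-Int29-Hi and 4.21 FPKM in MG, with Sftpa1 listed at 0 in E-Int29-Hi. Scgb1a1 alone carried 572 FPKM of the LCC sum, and Foxj1 was highest in E-Int29-Hi. In libraries made from many cells, fewer cells of a type and less RNA per cell cannot be told apart.

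The 79 genes together made up 1.48% of the summed FPKM of the LCC library, 1.42% for E-Int29-Hi and 1.70% for MG. Of the 70 at 1 FPKM or more in any library, 30 had their highest value in LCC, 14 had it in E-Int29-Hi and 26 had it in MG, where over all genes the shares were 41.6% for LCC, 25.2% for E-Int29-Hi and 33.2% for MG. The most abundant were Hspa5 and Hsp90ab1, at 1292 and 974 FPKM in LCC. The other 9 stood under 1 FPKM in each library, namely Hspb3, Hspb7, Dnajb3, Dnajb7, Dnajb8, Dnajc5b, Dnajc5g, Dnajc22 and Dnajc28. All of these but Hspb7 and Dnajc28 were listed at 0 in LCC.

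LCC over E-Int29-Hi compared cells recovered from the lung with the mammary cells gated on EpCAM and CD29. Of 68 genes, 1 stood at least 4-fold higher (Hspa4l), where 4.64% of all genes did, and 2 at least 4-fold lower (Bag2 and Hspa2), where 4.35% did. At least 2-fold higher were 13 and lower 7, against 21.2% and 14.1% of all genes. With median ratio scaling these counts were 0 and 3 at 4-fold, where 451 and 700 of 12233 genes passed. At 2-fold they were 7 and 11, where 1818 and 2253 genes passed. Rescaled to a common sum (TPM), 72 chaperone genes and 13812 genes in all reached the cut of 1. Of the 72, 1 and 4 passed 4-fold, where 705 and 942 of all genes did, and 13 and 11 passed 2-fold, where 2660 and 2745 did. By any amount, 45 of 68 were higher, where 60.7% of all genes were, and the median of 0.25 lay beside the all-gene median of 0.26. LCC over MG compared the recovered cells with the gland. Of 69 genes, 0 stood at least 4-fold higher, where 1.33% of all genes did, and 1 (Hspa2) lower, where 2.63% did. At least 2-fold higher were 5 and lower 8, against 10.9% and 12.8% of all genes. TPM gave 2 and 18 of 73, where 884 and 3912 of 14421 genes passed. By any amount, 35 of 69 were higher, where 50.3% of all genes were (median 0.08 beside 0.01). E-Int29-Hi over MG compared the gated cells with the gland. Of 68 genes, 1 stood at least 4-fold higher (Bag2), where 2.60% of all genes did, and 0 lower, where 3.97% did. TPM gave 1 and 1 of 72, where 375 and 1011 of 14477 genes passed. At least 2-fold higher were 6 and lower 6, against 8.99% and 15.5% of all genes. Median ratio scaling gave 8 and 5 of 69, where 1710 and 1382 of 12403 genes passed. TPM gave 6 and 11 of 72, where 1170 and 3730 of 14477 genes did. By any amount, 25 of 68 were higher, where 38.1% of all genes were (median -0.27 beside -0.23).

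**Figure D1:**
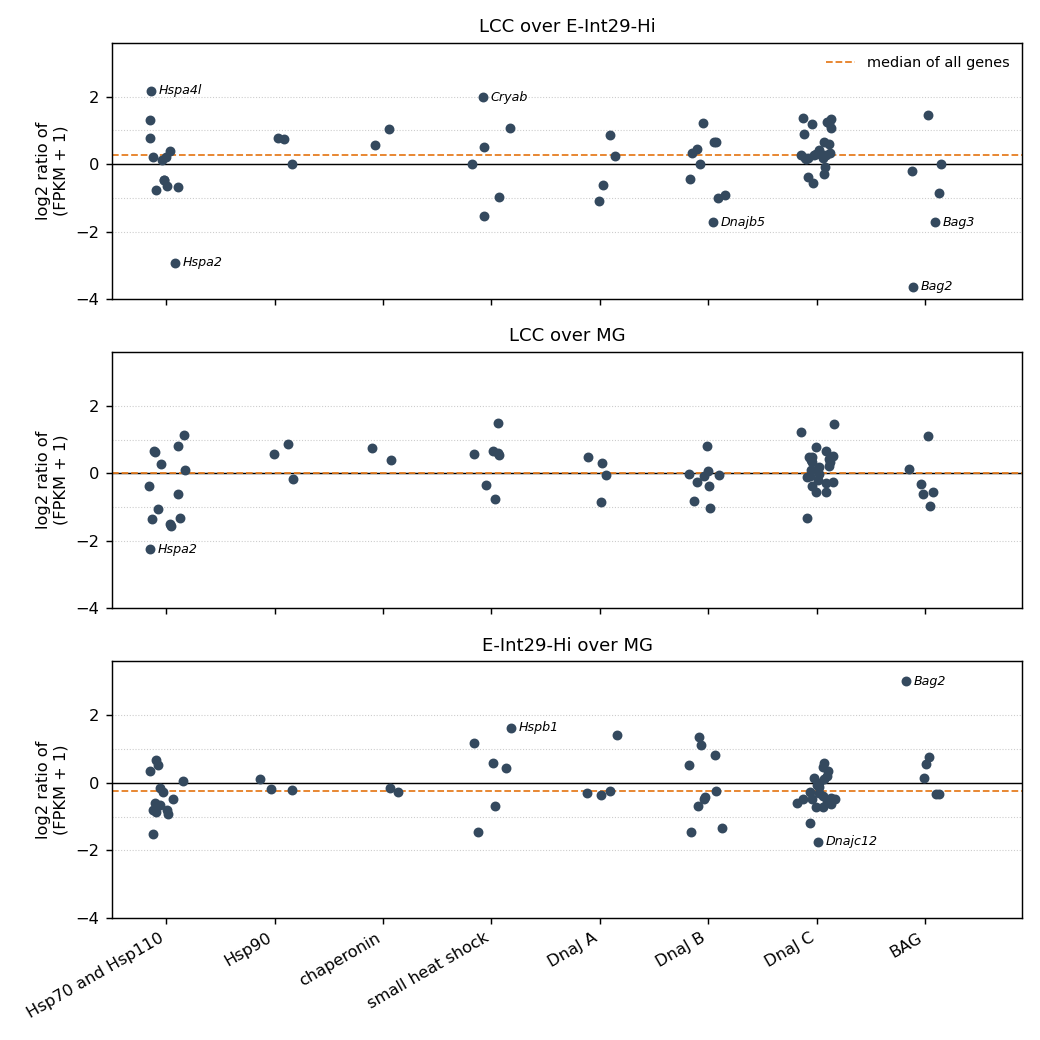
Each point is 1 gene, drawn as the log2 ratio of (FPKM + 1) between 2 libraries (vertical axis) by family (horizontal axis), with a panel for each comparison. The dashed line is the median of all genes (0.26, 0.01 and -0.23 from top to bottom), dotted lines mark 2-fold and 4-fold, and genes at 1.6 or more in size are named, with Bag2 the farthest point at -3.63 for LCC over E-Int29-Hi.

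The stress-inducible Hsp70 genes were highest in the gland and lowest in the cells from the lung. Hspa1a, which encodes an Hsp70 protein made on heat shock, was at 173 FPKM in LCC, against 279 in E-Int29-Hi and 490.1 FPKM in MG. Hspa1b, its near-identical neighbour on chromosome 17, measured 229 FPKM in LCC, against 389 in E-Int29-Hi and 675 FPKM in MG. Reads of this pair can be assigned to either gene, so their separate values are uncertain. Summed, they stood at 402 FPKM in LCC, against 669 in E-Int29-Hi and 1165 FPKM in MG, which is 2.90-fold lower in LCC than in MG and 1.66-fold lower than in E-Int29-Hi. Hspa1l, a relative best known from testis that lies beside Hspa1a, followed the same order at 3.24 FPKM in LCC, against 5.66 in E-Int29-Hi and 9.50 FPKM in MG. Whether reads of the pair added to the low values of Hspa1l was not tested. Set against Hspa8, the Hsp70 gene that cells express without stress, the summed pair was 0.836 times its level in LCC, against 1.81 times in E-Int29-Hi and 2.63 times in MG.

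The promoters of the Hspa1 pair carry the letters that Hsf1 is known to bind, and are printed here because the 2 genes kept the same order of levels. Sequences are from RefSeq (build GRCm38.p6), cover the 150 bases before the annotated start, and run 5′ to 3′ on the strand of the gene, with 2 adjoining units of the heat shock element (GAANNTTC or TTCNNGAA, N being any base) in capitals. The windows are chr17:34972157-34972306 for Hspa1a and chr17:34959239-34959388 for Hspa1b, both on the minus strand.
Hspa1a: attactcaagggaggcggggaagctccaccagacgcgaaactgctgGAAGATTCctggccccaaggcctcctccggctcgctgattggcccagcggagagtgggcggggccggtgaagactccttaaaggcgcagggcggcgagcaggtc
Hspa1b: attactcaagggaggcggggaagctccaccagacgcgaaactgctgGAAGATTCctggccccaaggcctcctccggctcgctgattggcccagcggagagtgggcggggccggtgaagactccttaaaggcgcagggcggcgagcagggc
The windows were the same at 149 of 150 positions, and in each the match lay 104 to 97 bases before the start. Searched on both strands over 250 bases before the start, such a match was held by 14.5% of the 27025 genes in the table and by 14 of the 63 chaperone genes found there by symbol. Among 14 genes fixed as heat-inducible, 11 had an entry (not Hspa8, Hsp90aa1 and Cryab), and 8 held a match, namely Hspa1a, Hspa1b, Hsph1, Hspb1, Dnajb4, Dnaja1, Hspd1 and Hspe1. Units overlap where 3 adjoin, and a match is a run of letters and not a measured binding site.

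The 14 heat-inducible genes did not share 1 order across the libraries. The list was chosen from textbook knowledge, with earlier results of these data known. Its summed level was 1884 FPKM in LCC, against 2331 in E-Int29-Hi and 2565 FPKM in MG. Hspa1a and Hspa1b made up 402, 669 and 1165 FPKM of these sums, and without that pair MG was not the highest library. For LCC over MG, 7 were higher and 7 lower by any amount, where 50.3% of all genes were higher (median -0.04 beside 0.01 over all genes). For LCC over E-Int29-Hi 6 were higher and 8 lower, where 60.7% were higher (median -0.23 beside 0.26). For E-Int29-Hi over MG 4 were higher and 10 lower, where 38.1% were higher (median -0.21 beside -0.23). Median ratio scaling turned these last counts to 10 higher and 4 lower. Hsph1, an Hsp110 protein that exchanges the nucleotide of Hsp70, was at 71.2 FPKM in LCC, against 99.2 in E-Int29-Hi and 109.8 FPKM in MG. Dnaja1, a DnaJ partner of cytosolic Hsp70, measured 21.0 FPKM in LCC, against 32.7 in E-Int29-Hi and 38.7 FPKM in MG. Both were lowest in LCC, while their order between E-Int29-Hi and MG turned round under median ratio scaling. Dnajb4, another cytosolic partner, stood at 20.2 FPKM in LCC, against 15.9 in E-Int29-Hi and 42.2 FPKM in MG, so the gland was above both sorted populations. Dnajb1, the main heat-inducible DnaJ protein, differed less, at 61.5 FPKM in LCC, against 84.1 in E-Int29-Hi and 57.9 FPKM in MG. Its order between LCC and MG turned round under TPM. A list of 10 genes of the early response to stress and tissue handling, such as Fos and Ier3, summed to 2418 FPKM in LCC, against 3029 in E-Int29-Hi and 3588 FPKM in MG. Of these, 8 were lowest in LCC, but Ier3 was highest there (956 FPKM, against 624 in E-Int29-Hi and 475 in MG). Higher in LCC than in MG was 1 of 10, where 50.3% of all genes were. Than in E-Int29-Hi 2 were, where 60.7% were. For E-Int29-Hi over MG, 4 were higher, where 38.1% were, and 6 lower, or 6 and 4 under median ratio scaling. The part of that response in the order of the Hspa1 genes was not tested.

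**Figure D2:**
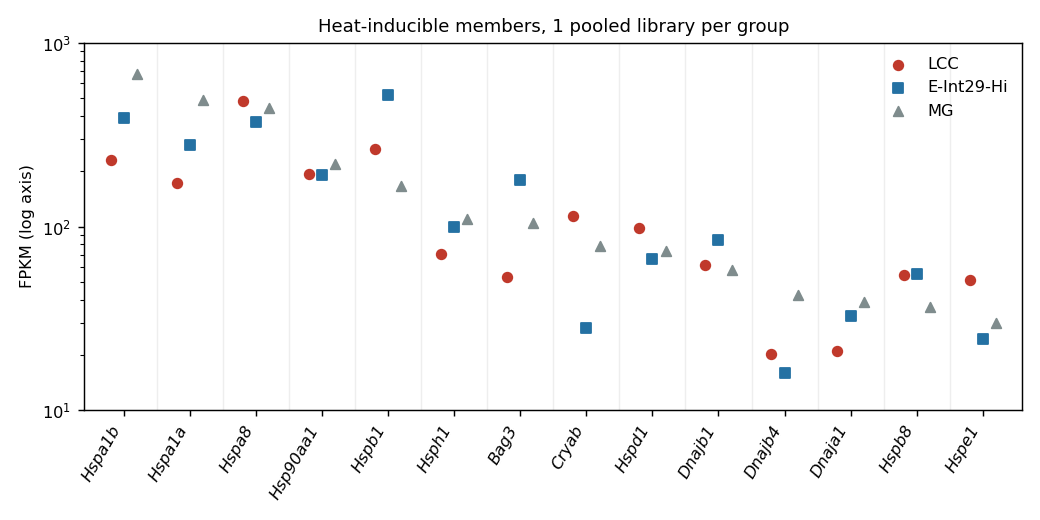
Levels of the 14 heat-inducible genes in FPKM (vertical log axis) in LCC (circles), E-Int29-Hi (squares) and MG (triangles), ordered by the level in MG; each point is 1 pooled library. Hspa1b and Hspa1a are highest in MG at 675 and 490.1 FPKM, Hspb1 and Bag3 are highest in E-Int29-Hi, and Cryab, Hspd1 and Hspe1 are highest in LCC.

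Chaperones of mitochondria were higher in LCC than in the other libraries, with 1 exception. Of 7 genes, 7 were above E-Int29-Hi, where 60.7% of all genes were (median 1.03 beside 0.26 over all genes). Higher than in MG were 6, where 50.3% of all genes were (median 0.75 beside 0.01). These counts were the same under median ratio scaling and TPM. Hspa9, the mitochondrial Hsp70 that pulls proteins through the inner membrane, was at 221 FPKM in LCC, against 89.4 in E-Int29-Hi and 125 FPKM in MG. Dnaja3, its DnaJ partner in the matrix, measured 19.8 FPKM in LCC, against 10.5 in E-Int29-Hi and 13.7 FPKM in MG. Dnajc15 and Dnajc19 encode related J proteins of the import motor. Dnajc15 stood at 14.8 FPKM in LCC, against 5.19 in E-Int29-Hi and 5.71 FPKM in MG. Dnajc19 was at 7.13 FPKM in LCC, against 2.17 in E-Int29-Hi and 1.92 FPKM in MG. The exception was Dnajc11, which is tied to the cristae of mitochondria, at 10.7 FPKM in LCC, against 8.40 in E-Int29-Hi and 13.1 FPKM in MG.

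Hspd1 and Hspe1 encode the chaperonin chamber and its lid, and their genes are transcribed away from each other out of a shared promoter region. Hspd1 was at 98.7 FPKM in LCC, against 67.0 in E-Int29-Hi and 73.9 FPKM in MG. Hspe1 measured 51.0 FPKM in LCC, against 24.5 in E-Int29-Hi and 29.9 FPKM in MG. Both genes were highest in LCC and lowest in E-Int29-Hi, but their order between E-Int29-Hi and MG turned round under median ratio scaling, and both have processed pseudogenes that can take reads. The level of Hspe1 was 0.517 of that of Hspd1 in LCC, against 0.366 in E-Int29-Hi and 0.405 in MG. Their windows are printed because the pair shares its regulatory letters: they are chr1:55087933-55088082 on the minus strand for Hspd1 and chr1:55087998-55088147 on the plus strand for Hspe1 (RefSeq, GRCm38.p6), with overlapping units of the heat shock element in capitals.
Hspd1: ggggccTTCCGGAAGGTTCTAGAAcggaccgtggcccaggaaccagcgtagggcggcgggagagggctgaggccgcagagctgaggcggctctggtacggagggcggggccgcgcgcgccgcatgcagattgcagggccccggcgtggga
Hspe1: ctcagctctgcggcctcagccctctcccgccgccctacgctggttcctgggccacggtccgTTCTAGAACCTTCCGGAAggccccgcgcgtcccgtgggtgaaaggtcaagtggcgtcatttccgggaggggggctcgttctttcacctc
The windows share 85 bases, read on opposite strands, and the 18 bases in capitals are in both. A run of 3 adjoining units in alternating direction was held by 0.514% of genes in the table and by 3 of the chaperone genes, Hspd1, Hspe1 and Dnajb6.

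The leading chaperones of the endoplasmic reticulum were also highest in LCC. Hspa5, the Hsp70 of this compartment known as BiP, stood at 1292 FPKM in LCC, against 750.3 in E-Int29-Hi and 587 FPKM in MG, and was 2.20-fold higher in LCC than in MG. Hsp90b1, the Hsp90 of this compartment, was at 371 FPKM in LCC, against 221 in E-Int29-Hi and 203 FPKM in MG. Dnajb11, a partner of BiP in protein folding, measured 43.1 FPKM in LCC, against 17.8 in E-Int29-Hi and 24.1 FPKM in MG. LCC was thus the highest library for these 3 genes, and it remained so under median ratio scaling and TPM. Hspa5 made up 50.0% of the summed Hsp70 and Hsp110 level in LCC, against 36.0% in E-Int29-Hi and 22.8% in MG. Dnajb9, a BiP partner that is induced by misfolded protein, had another order, at 33.7 FPKM in LCC, against 20.9 in E-Int29-Hi and 59.7 FPKM in MG. Dnajc3, which stress in this compartment also induces, stood at 17.1 FPKM in LCC, against 21.3 in E-Int29-Hi and 22.5 FPKM in MG. Over 11 genes of the compartment, 6 were higher in LCC than in MG, where 50.3% of all genes were (median 0.12 beside 0.01), or 4 under TPM. Higher in LCC than in E-Int29-Hi were 10, where 60.7% of all genes were (median 0.45 beside 0.26), or 7 under median ratio scaling. The remaining 6 genes of the list (Hspa13, Dnajb12, Dnajb14, Dnajc1, Dnajc10 and Dnajc16) were all within 2-fold between any 2 libraries.

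**Figure D3:**
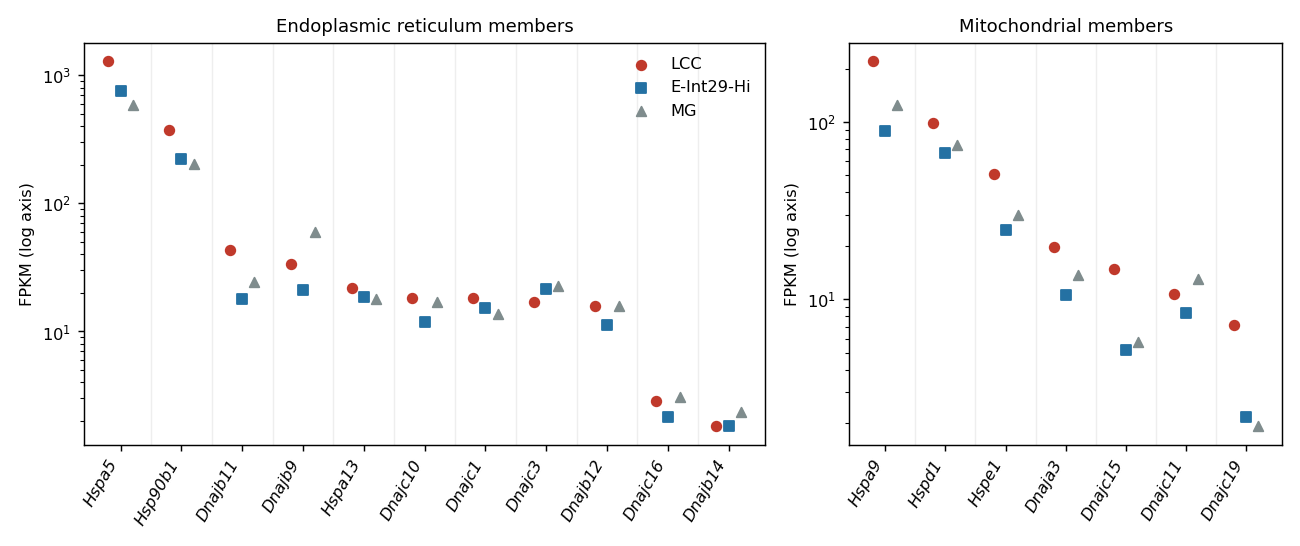
Levels in FPKM (vertical log axes) of the 11 genes of the endoplasmic reticulum (left) and the 7 mitochondrial genes (right) in LCC (circles), E-Int29-Hi (squares) and MG (triangles), each point 1 pooled library. LCC is the highest point for Hspa5 at 1292 FPKM and for Hspa9 at 221 FPKM, while Dnajb9 at 59.7 FPKM and Dnajc11 at 13.1 FPKM are highest in MG.

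The Hspa5 promoter is shown with the letters of the endoplasmic reticulum stress response element in capitals, which is a CCAAT box, a spacer of 9 bases and CCACG. This motif was chosen after the expression values were seen. The window is chr2:34771940-34772089 on the plus strand (RefSeq, GRCm38.p6).
Hspa5: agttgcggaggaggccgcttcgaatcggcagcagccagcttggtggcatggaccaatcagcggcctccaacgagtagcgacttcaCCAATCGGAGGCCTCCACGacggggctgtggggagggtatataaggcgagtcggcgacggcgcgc
The match lay 65 to 47 bases before the start. On either strand of the 250 bases before the start, the motif was held by 0.130% of genes in the table and by 3 of the chaperone genes, Hspa5, Hsp90b1 and Dnajc3. The first 2 of these were highest in LCC and Dnajc3 was lowest there, so the match did not go with 1 order of levels.

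Cytosolic Hsp90 and the unstressed Hsp70 differed by less than 2-fold between libraries. Hsp90ab1, the constitutive Hsp90, was at 974 FPKM in LCC, against 564 in E-Int29-Hi and 658 FPKM in MG. Hsp90aa1, its inducible relative, measured 193 FPKM in LCC, against 192 in E-Int29-Hi and 218 FPKM in MG. The ratio of Hsp90aa1 to Hsp90ab1 was lower in LCC (0.198) than in E-Int29-Hi (0.340) and MG (0.332). Hspa8 stood at 480.4 FPKM in LCC, against 369 in E-Int29-Hi and 444 FPKM in MG, and its order between LCC and MG turned round under TPM. The order of Hsp90aa1 and of Hspa4 between LCC and E-Int29-Hi turned round under another scaling too. Hspa4, an Hsp110 protein, was at 57.5 FPKM in LCC, against 49.2 in E-Int29-Hi and 75.2 FPKM in MG. Its relative Hspa4l was 5.73-fold higher in LCC than in E-Int29-Hi, at 16.4 FPKM in LCC, against 2.85 in E-Int29-Hi and 10.03 FPKM in MG. Hspa4l was highest in LCC, while Hspa2 was lowest there. Hspa2, known for its role in sperm formation, was lower in LCC than in E-Int29-Hi (12.3-fold) and MG (7.42-fold), at 1.41 FPKM in LCC, against 17.3 in E-Int29-Hi and 10.5 FPKM in MG. Hspa12b, known from endothelium, measured 0.923 FPKM in LCC, against 1.67 in E-Int29-Hi and 3.86 FPKM in MG. Its relative Hspa12a was at 0.466 FPKM in LCC, against 0.606 in E-Int29-Hi and 2.04 FPKM in MG. Both Hspa12 genes were highest in MG and lowest in LCC. Beside them, 8 of 8 endothelial markers were highest in MG, with sums of 123 FPKM in LCC, against 116 in E-Int29-Hi and 567 FPKM in MG and none listed at 0, and their part in the Hspa12 levels was not tested. Hspa14, an Hsp70 relative found at ribosomes, stood at 15.7 FPKM in LCC, against 14.5 in E-Int29-Hi and 9.78 FPKM in MG. A further gene model of the same name was at 0.419 FPKM in LCC, against 1.17 in E-Int29-Hi and 1.70 FPKM in MG.

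BAG genes link Hsp70 to different fates of its substrates, and 1 of them, Bag2, had the largest log2 difference of the chaperone genes compared. Bag2, which inhibits the ubiquitin ligase CHIP, was at 3.36 FPKM in LCC, against 53.0 in E-Int29-Hi and 5.67 FPKM in MG. It was 15.8-fold lower in LCC than in E-Int29-Hi and in E-Int29-Hi 9.34-fold higher than in MG. Bag3, which steers damaged proteins to autophagy and is induced by Hsf1, measured 53.2 FPKM in LCC, against 179 in E-Int29-Hi and 105 FPKM in MG. Bag1, which links Hsp70 to the proteasome, had the opposite order, at 81.9 FPKM in LCC, against 29.5 in E-Int29-Hi and 37.7 FPKM in MG. The ratio of Bag3 to Bag1 was 0.651 in LCC, against 6.07 in E-Int29-Hi and 2.79 in MG. Bag5 stood at 11.04 FPKM in LCC, against 20.9 in E-Int29-Hi and 13.9 FPKM in MG. Bag6, which guards proteins with a membrane anchor at their tail, was at 63.2 FPKM in LCC, against 62.8 in E-Int29-Hi and 57.1 FPKM in MG. Bag6 was thus nearly level, although its order turned round under other scalings. Bag4 was low throughout, between 1.68 FPKM in LCC and 2.93 FPKM in MG.

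Among small heat shock genes, Hspb1, Cryab and Hspb6 set E-Int29-Hi apart from the other libraries, while Hspb2, Hspb8, Hspb9 and Hspb11 did not. Hspb1, the main small heat shock protein of epithelia and muscle, was at 263 FPKM in LCC, against 516 in E-Int29-Hi and 166 FPKM in MG. Cryab, the crystallin relative that is abundant in lens and muscle, measured 114 FPKM in LCC, against 28.2 in E-Int29-Hi and 78.3 FPKM in MG. Hspb1 was thus highest and Cryab lowest in E-Int29-Hi, and the ratio of Hspb1 to Cryab was 2.30 in LCC, against 18.3 in E-Int29-Hi and 2.12 in MG. Hspb2, which overlaps the Cryab gene so that reads of the pair may be mixed, stood at 1.45 FPKM in LCC, against 0.709 in E-Int29-Hi and 0.623 FPKM in MG. Hspb2 was thus low in every library, and Hspb6 was low in LCC and MG. Hspb6, known from smooth muscle, was at 1.41 FPKM in LCC, against 5.96 in E-Int29-Hi and 2.05 FPKM in MG. Hspb8, which works with Bag3, measured 54.7 FPKM in LCC, against 55.0 in E-Int29-Hi and 36.5 FPKM in MG, and so did not share the order of Bag3. The remaining low members differed in order. Hspb11, a subunit of transport along cilia despite its name, stood at 8.39 FPKM in LCC, against 3.46 in E-Int29-Hi and 2.31 FPKM in MG. Hspb9 was at 0.485 FPKM in LCC, against 0.548 in E-Int29-Hi and 1.499 FPKM in MG.

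**Figure D4:**
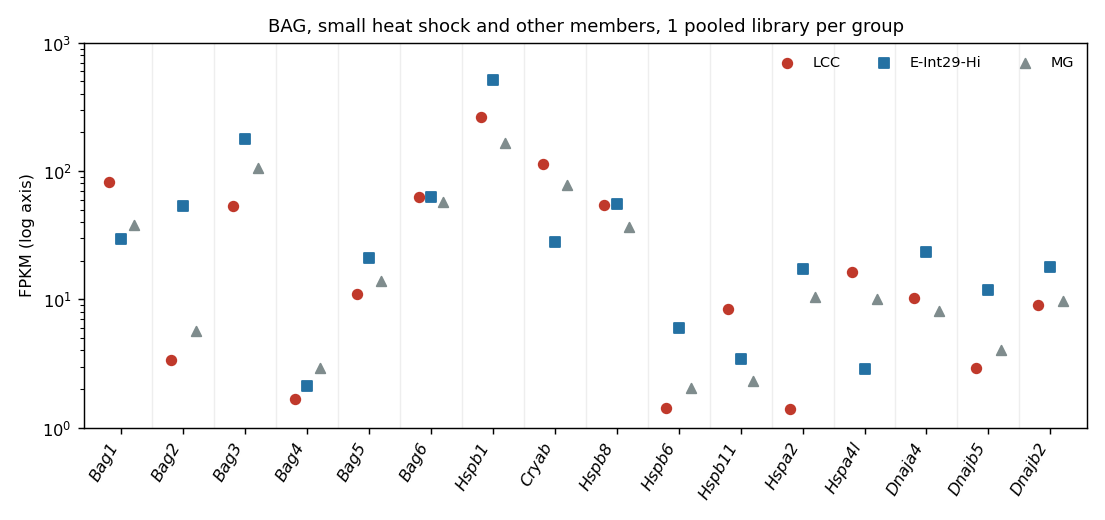
Levels in FPKM (vertical log axis) of the 6 BAG genes, 5 small heat shock genes and 5 Hsp70 or DnaJ genes in LCC (circles), E-Int29-Hi (squares) and MG (triangles), each point 1 pooled library. Bag2, Bag3, Hspb1, Hspb6, Dnaja4 and Dnajb5 are highest in E-Int29-Hi, where Cryab at 28.2 FPKM and Hspa4l at 2.85 FPKM are lowest.

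Like Bag2 and Hspb1, some DnaJ genes were highest in E-Int29-Hi, where 25.2% of all genes had their highest value. Among those at 1 FPKM or more in any library, they were 1 of 4 in class A, 4 of 10 in class B and 2 of 24 in class C. Dnaja4 was at 10.3 FPKM in LCC, against 23.4 in E-Int29-Hi and 8.10 FPKM in MG. Dnajb5, a cytosolic partner of Hsp70, measured 2.90 FPKM in LCC, against 11.9 in E-Int29-Hi and 4.06 FPKM in MG. Dnajb2, best known from neurons, stood at 9.09 FPKM in LCC, against 17.9 in E-Int29-Hi and 9.69 FPKM in MG. Dnajb13, known from sperm and cilia, was at 0.437 FPKM in LCC, against 1.89 in E-Int29-Hi and 0.325 FPKM in MG. Beside these genes, 11 of 11 basal and myoepithelial markers were highest in E-Int29-Hi and none was listed at 0, and the part of that cell type in Bag2, Hspb1, Hspb6 and the DnaJ genes named here was not tested.

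Other DnaJ genes were highest in LCC or lowest in E-Int29-Hi. Dnajc2, which acts at ribosomes and on chromatin, was at 15.5 FPKM in LCC, against 5.91 in E-Int29-Hi and 8.52 FPKM in MG. Dnajc21, which serves ribosome assembly, measured 25.0 FPKM in LCC, against 10.2 in E-Int29-Hi and 17.5 FPKM in MG. Dnajc9, a histone chaperone, was at 5.54 FPKM in LCC, against 2.13 in E-Int29-Hi and 3.87 FPKM in MG. These 3 genes were highest in LCC and lowest in E-Int29-Hi. Dnajc14, which helps receptors to leave the endoplasmic reticulum, stood at 11.2 FPKM in LCC, against 4.34 in E-Int29-Hi and 11.3 FPKM in MG. The sorted E-Int29-Hi cells were thus apart for this gene, while LCC and MG were level. Dnajc12, a partner of aromatic amino acid hydroxylases, was at 1.06 FPKM in LCC, against 0.540 in E-Int29-Hi and 4.16 FPKM in MG. Dnaja2, Dnajc5, Dnajc7 and Dnajc8 differed by less than 2-fold between libraries, and Dnaja2, Dnajc7 and Dnajc8 each turned order in at least 1 comparison under another scaling. Dnaja2 measured 57.3 FPKM in LCC, against 48.3 in E-Int29-Hi and 59.6 FPKM in MG. Dnajc7, which also binds Hsp90, was at 35.8 FPKM in LCC, against 32.0 in E-Int29-Hi and 27.9 FPKM in MG. Dnajc8, which is found in the spliceosome, was at 24.1 FPKM in LCC, against 21.3 in E-Int29-Hi and 16.5 FPKM in MG. Dnajc5, the cysteine string protein of secretory vesicles, stood at 26.4 FPKM in LCC, against 27.8 in E-Int29-Hi and 39.3 FPKM in MG. Of 24 class C genes compared with E-Int29-Hi, 20 were higher in LCC by any amount, where 60.7% of all genes were (median 0.30 beside 0.26). Under median ratio scaling 16 were higher. The remaining class B and C genes (Dnajb6 and Dnajc4, 6, 13, 16, 17, 18, 24, 25, 27 and 30) were all within 2-fold on the log2(FPKM + 1) scale in each comparison they entered.

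Partner genes outside these families were read from fixed lists. The CCT ring folds actin and tubulin, and prefoldin delivers to it. Of their 13 genes compared, 13 were higher in LCC than in E-Int29-Hi, where 60.7% of all genes were (median 0.82 beside 0.26). Higher than in MG were 13 of 13, where 50.3% of all genes were (median 0.84 beside 0.01). Each of the 13 kept this direction under median ratio scaling and TPM. At least 2-fold higher than in E-Int29-Hi were 3 of 13, where 21.2% of all genes were. Either rescaling gave 1, where 1818 of 12233 genes passed with median ratios and 2660 of 13812 under TPM. At least 2-fold higher than in MG were 6 of 13, where 10.9% of all genes were. Median ratio scaling gave 6, where 1453 of 12309 genes passed, but TPM gave 1 (Pfdn1), where 884 of 14421 did. Cct2 was at 224 FPKM in LCC, against 105 in E-Int29-Hi and 101 FPKM in MG. Pfdn1 was at 25.5 FPKM in LCC, against 6.39 in E-Int29-Hi and 9.04 FPKM in MG. Cct6b, under 1 FPKM in each library, and Pfdn6, which was not among the names analysed, are not counted. Of 25 Hsp90 co-chaperones compared, 6 were at least 2-fold higher and 1 lower in LCC than in E-Int29-Hi, where 21.2% and 14.1% of all genes were. Either rescaling gave 4 higher and 2 lower. Over all genes 1818 and 2253 of 12233 passed with median ratios, and 2660 and 2745 of 13812 under TPM. Against MG, 2 were higher and 1 lower in LCC, where 10.9% and 12.8% of all genes were. TPM gave 0 higher and 3 lower, where 884 and 3912 of 14421 genes passed. St13, which stabilises Hsp70 with its substrate, measured 103 FPKM in LCC, against 33.6 in E-Int29-Hi and 68.9 FPKM in MG. LCC was the highest library for St13, and likewise for Sugt1 and Stub1. Sugt1, an Hsp90 partner, stood at 28.5 FPKM in LCC, against 7.87 in E-Int29-Hi and 12.4 FPKM in MG. Stub1, which encodes the ligase CHIP that Bag2 inhibits, was at 31.5 FPKM in LCC, against 14.0 in E-Int29-Hi and 19.6 FPKM in MG, and so had its lowest value where Bag2 had its highest. Unc45a, a chaperone of myosin, had the order of Bag2, at 18.6 FPKM in LCC, against 62.5 in E-Int29-Hi and 24.9 FPKM in MG. The last 3 partners were again highest in LCC, except that Fkbp5 was higher in MG under TPM. Cacybp measured 49.9 FPKM in LCC, against 23.4 in E-Int29-Hi and 22.6 FPKM in MG. Ttc1 was at 17.0 FPKM in LCC, against 4.88 in E-Int29-Hi and 11.6 FPKM in MG. Fkbp5, which glucocorticoids induce, was at 12.5 FPKM in LCC, against 4.57 in E-Int29-Hi and 10.6 FPKM in MG.

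Exchange factors and heat shock factors showed no order common to all. Of 5 exchange factors, 2 were at least 2-fold higher in LCC than in E-Int29-Hi (Hspbp1 and Grpel2), where 21.2% of all genes were, and 1 (Hspbp1) was at least 2-fold higher than in MG, where 10.9% were. Hspbp1, of the cytosol, was at 29.8 FPKM in LCC, against 7.09 in E-Int29-Hi and 10.2 FPKM in MG. Grpel2, of mitochondria, was at 14.2 FPKM in LCC, against 3.51 in E-Int29-Hi and 9.39 FPKM in MG. Hsf1, the factor that drives the heat shock genes, stood at 19.4 FPKM in LCC, against 25.1 in E-Int29-Hi and 18.7 FPKM in MG. Its level differed by at most 1.34-fold (E-Int29-Hi over MG), and its part in the order of the Hspa1 genes was not tested. Hsf2 was at 10.6 FPKM in LCC, against 4.74 in E-Int29-Hi and 9.02 FPKM in MG. In LCC, 7 of 9 leukocyte markers and 7 of 8 lung epithelium markers had their highest value, with none at 0 there, where 41.6% of all genes were highest in LCC, and their part in the levels of the mitochondrial, reticulum and CCT genes was not tested.

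**Figure D5:**
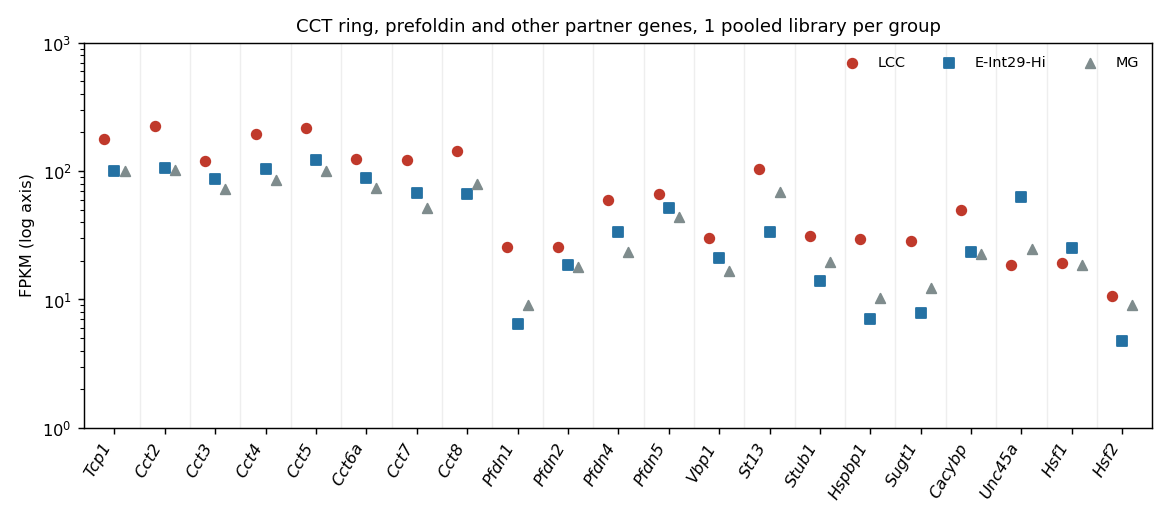
Levels in FPKM (vertical log axis) of the CCT and prefoldin genes and of 8 further partners in LCC (circles), E-Int29-Hi (squares) and MG (triangles), each point 1 pooled library. LCC is the highest point for the 13 CCT and prefoldin genes from Tcp1 to Vbp1, while Unc45a and Hsf1 are highest in E-Int29-Hi at 62.5 and 25.1 FPKM.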

How the data were processed

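Poly(A) RNA of 3 pooled samples was prepared with a TruSeq kit for Illumina sequencing, per the labels' protocols. The authors deposited an FPKM value and a status per gene model for each library. The submitters' processing notes list TopHat 1.4.1, Cufflinks 1.3.0 and mm9 and give them no role; the annotation release and strand setting are not given in the sources used here. Of 22378 gene models, 22188 had status OK throughout and were kept, and for a repeated name the model with the highest summed FPKM, which left 22077 names. All 80 models of the 79 chaperone names (Hspa14 has 2) had status OK. Depth could be read only from low values: among genes between 0.001 and 0.1 FPKM in both libraries, the commonest ratio of LCC to E-Int29-Hi was 1.12, shared by 15 of 391 genes, that of LCC to MG was 1.17 (18 of 331), and that of E-Int29-Hi to MG was 1.05 (129 of 1184), which is too few genes to recover reads.

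With 1 library per group, log2 ratios of (FPKM + 1) were computed where either library reached 1 FPKM and counted past 2-fold and 4-fold. Alternatives were pseudocounts of 0.1 and 5, no filter and a filter at 5 FPKM, median ratio scaling, TPM, summed models and genes of every status. The search for the endoplasmic reticulum stress response element was added after values were seen. The naming rule took genes at least 4-fold apart, or 2-fold apart at 10 FPKM or more, the 4 highest of each family and the heat-inducible list, 37 in all. Others are named with their values seen. Members and lists were chosen with earlier results of these data known. Marker and partner symbols were matched by name. Promoter sequences are RefSeq's for GRCm38.p6, another build than the files', so no position of the files is given. Protein sequences were not used here. The computation was tested on simulated data. Python 3.11.15, numpy 2.4.6, pandas 2.3.3 and matplotlib 3.10.9 were used.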

Additional observations from a re-analysis of the deposited data

How the results depend on the processing

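Of 15 summary values (counts of chaperone genes past 4-fold and 2-fold and medians) under 8 alternatives, 91 results were within 1.5 times the main count or a median of the same sign, 25 counts were not, and 4 medians turned sign. All 15 stayed so when models of one name were summed or genes of every status were included. Counts over all genes moved with these settings too, and are given here where the Results do not give them. For LCC over E-Int29-Hi, 2-fold counts higher and lower were 5 and 4 with a pseudocount of 5, where 1211 and 929 of 12147 genes passed. They were 7 and 11 with median ratio scaling, and 11 were lower under TPM. The 4-fold counts were 2 and 4 with a pseudocount of 0.1, where 1128 and 947 of 12147 genes passed. With a pseudocount of 5 they were 0 and 1, where 209 and 235 did. Median ratio scaling gave 0 higher, and TPM gave 4 lower. For LCC over MG, 2-fold counts were 2 and 3 with a pseudocount of 5, where 723 and 581 of 12443 genes passed. They were 2 and 18 under TPM. With a filter at 5 FPKM 5 were lower, where 1055 of 8748 genes were. The 4-fold lower count was 0 with a pseudocount of 5, where 95 of 12443 genes passed, and 3 under TPM, where 919 of 14421 did. For E-Int29-Hi over MG, 2-fold counts were 3 and 3 with a pseudocount of 5, where 659 and 782 of 12430 genes passed. With a pseudocount of 0.1 10 were lower, where 2844 of 12430 genes were, and under TPM 11 were lower. The 4-fold counts were 2 and 1 with a pseudocount of 0.1, where 521 and 1089 of 12430 genes passed, and 1 was lower under TPM. The medians turned to -0.0074 (LCC over E-Int29-Hi) and 0.049 (E-Int29-Hi over MG) with median ratio scaling, and for LCC over MG to -0.011 without a filter and -0.29 under TPM. A pseudocount of 5 shrinks low genes by construction, and other causes were not tested. TPM counts covered 72, 73 and 72 chaperone genes in the 3 comparisons, as more genes reached the cut of 1. On the 68, 69 and 68 genes of the main setting, 2-fold counts under TPM were 13 and 10, 2 and 16, and 6 and 10. Of the log2 ratios of named genes past 2-fold, 232 results kept their side of the thresholds, 28 were weaker, 4 were stronger and none changed sign. No paired analysis was possible because each group was 1 library, and for the same reason no library could be left out. Without replicates, no difference between these pools can be told from variation between pools, and values under about 1 FPKM are the least certain.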
